A study of Rattus norvegicus with 6 samples.

Results

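Among the probes of a rat LncRNA/mRNA array, 50 that carry names of the A_43_P or A_44_P series are printed at 10 positions on every array, most of them tied to a transcript accession. The genes described here are those of 45 of these 50 probes, of 38804 probes in all. The probe names and the number of spots gave the 50, and the other 5 (Ldha, Fgf2, Gdnf, Ppp2r2b and Cdh2) were left out by name. The accession gave a gene symbol for 25 of the 45 probes, and for the other 20 the accession was not matched to a symbol in the RefSeq tables used here. The named genes came from 24 of 28 RefSeq mRNA accessions and 1 of 2 RefSeq non-coding RNA accessions. The remaining probes carried 4 Ensembl, 5 GenBank and 4 TIGR consensus accessions, and 2 carried only their own probe name.

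The RNA came from bone marrow mesenchymal stem cells (BMSCs), adherent stromal cells washed from the long bones of young Sprague-Dawley rats and grown in culture. The 3 normoxia and the 3 hypoxia samples were kept in their gas for 48 h, hypoxia being a mixture with 0% oxygen, and all were grown in the same serum-containing medium. The submitters describe the 3 samples of each condition as biological replicates, and nothing says whether equal replicate numbers share a culture, so p-values measure the spread between these samples. The study compared the conditions in search of LncRNAs tied to BMSC apoptosis in hypoxia.

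In cells short of oxygen, the hypoxia-inducible factors (HIFs) are stabilised and bind short DNA elements near target genes, many of which serve glycolysis and oxygen delivery. Oxygen shortage also slows protein synthesis and turns pyruvate away from the mitochondria through the pyruvate dehydrogenase kinases. The named genes span metabolism, transport, signalling, ubiquitin ligation and RNA handling, and 0 of the 178 genes of 7 pathway lists (HIF targets and glycolysis, stress, cell cycle, matrix, apoptosis, mitochondria, ribosome) and 5 cell type marker lists were among them once Ldha and Cdh2, list genes on ten-spot probes, had been left out by name, so that the BMSC identity could not be checked with these probes.

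Of the named genes, 18 had a promoter in the RefSeq set of the assembly GRCr8, which gives 250 bases before and 50 bases after each gene's start. The core letters of the HIF response element, ACGTG and GCGTG, were searched on both strands, and a match at CACGTG counts once on each strand. The windows below are shown for 5 genes with a low signal under hypoxia and for 1 gene, Map2, whose conditions overlapped. They are written 5′ to 3′ along the gene, with the matched letters in capitals (CACGT and CACGC are the same letters read from the other strand).

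Pdk3: cgcgccgcgtACGTGcggcggcaga
Dlg4: ccctcccttcCACGCtcccctaccc
Slc28a2: aactaagaaaCACGTtttcaagaag
Med16: cttttatcgcACGTGtagcctcaat
Cse1l: ggcccctcccCACGTcgcggcctca
Map2: ttattagcatGCGTGggtcagaaat

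In GRCr8 these windows lie at chrX:62547411-62547435 on the minus strand (Pdk3) and, on the plus strand, at chr10:55239649-55239673 (Dlg4), chr3:129819677-129819701 (Slc28a2), chr7:10449209-10449233 (Med16), chr3:176060150-176060174 (Cse1l) and chr9:75346639-75346663 (Map2). The matches shown began at base -54 from the start in Pdk3, -125 in Dlg4, -101 in Slc28a2, -80 in Med16, -78 in Cse1l and -41 in Map2. Pdk3 held 1 ACGTG and 4 GCGTG matches and Med16 held 2 ACGTG matches, of which 1 window each is shown. Of the 16 promoters whose gene was detected on all 6 arrays, 13 held at least 1 match, 8 of them ACGTG and 7 GCGTG. Over all 33469 promoters of that length, 19.3% held ACGTG, 29.7% GCGTG and 41.6% either. These shares count every promoter of the set, whether or not its gene was detected here, so the sets compared are not alike. Among the 16, a match was found in 8 of the 9 genes with every hypoxia array under every normoxia array and in 5 of the other 7. Mex3c and Enpp1, also lower on every hypoxia array, had no promoter in the set and are not counted. Nlrp3, one of those 9 genes, held neither motif in this window, and these matches describe letters only, with binding not measured.

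Each array gave a background-corrected Cy3 intensity for every spot. Levels below are log2 means over the up to 10 spots of a probe, quantile-normalized across the arrays, and levels of different probes are not comparable because probes bind with unequal strength. The RNA was taken from whole cultures, so that fewer cells of a kind and less RNA per cell cannot be told apart. The median intensity over all probes was between 23.9 and 36.9 on the normoxia arrays and between 24.96 and 54.2 on the hypoxia arrays. The normoxia arrays and hypoxia replicate 1 were read in scan 1, and hypoxia replicates 2 and 3 in scan 2, where the median local background was 22.5 and 22.0 against 14 to 16 on the other arrays. A change is hypoxia minus normoxia on the log2 scale from limma fitted over 30451 probes, with Benjamini-Hochberg adjustment over all of them, and a call needed both an adjusted p under 0.05 and more than a 2-fold difference.

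A probe was detected where at least 0.5 of its spots were significant and well above background. By this measure 38 of the 45 probes, 22 of them named, were detected on all 6 arrays, 3 on some arrays and 4 on none. The genes of the 2 undetected named probes were Lhcgr, the luteinizing hormone receptor of the gonads, and P2rx2, an ATP-gated ion channel. The probe for Cyp2e1, an ethanol-oxidising cytochrome P450 of the liver, was detected only on hypoxia replicates 2 and 3. The 3 normoxia intensities were 5.81, 4.77 and 3.35, and the 3 hypoxia intensities were 2.75, 12.3 and 10.9. The 2 arrays with the higher values were those of the second scan, and after normalization the levels were 2.64, 2.46 and 2.38 under normoxia and 2.05, 2.72 and 2.68 under hypoxia, so that the conditions overlapped. Because it was not well above background on any normoxia array, no fold is given for Cyp2e1. An unnamed probe, A_44_P959510, was detected on the 3 hypoxia arrays and on no normoxia array, yet its mean level was 2.24 under hypoxia and 2.43 under normoxia. It entered the test only through its hypoxia arrays and gives no fold either. With it, 39 probes entered the test, 22 named and 17 unnamed, and 6 did not. None of the spots was saturated.

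**Figure D1:**
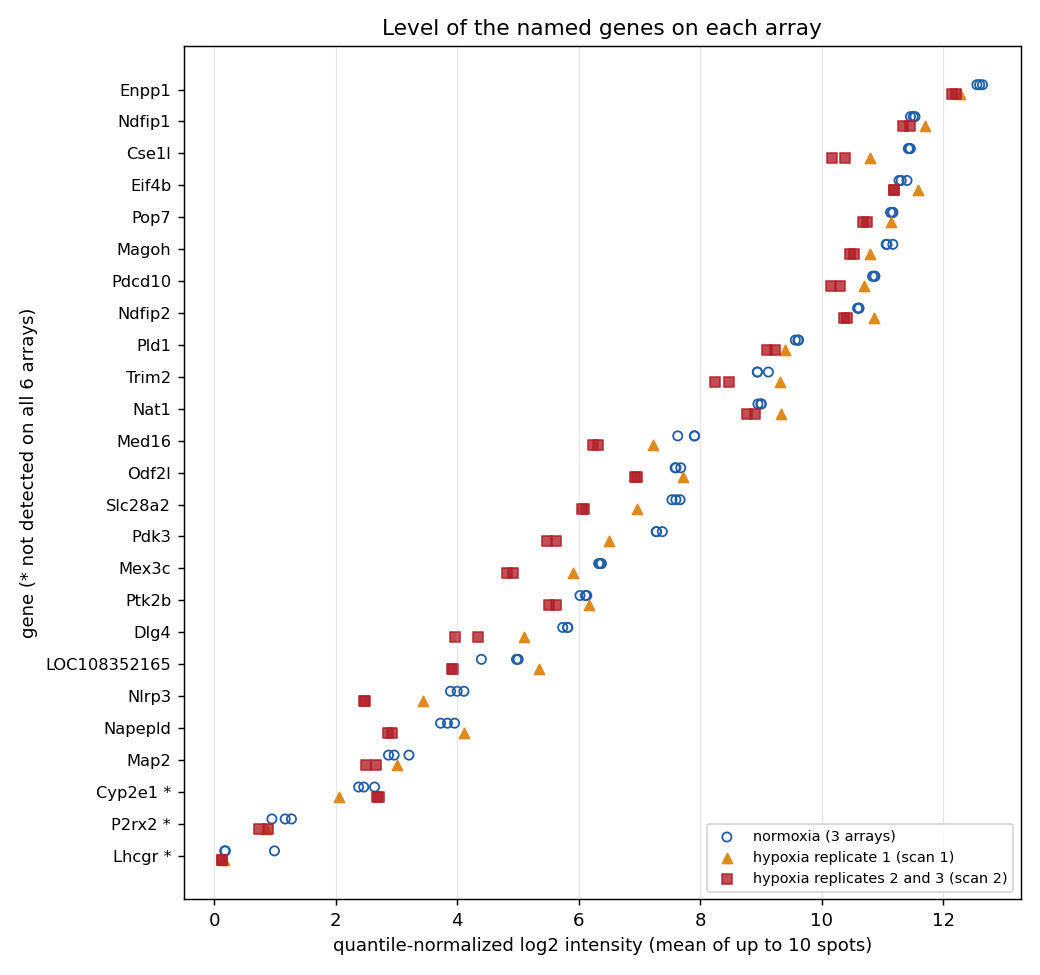
Quantile-normalized log2 intensity of the 25 named genes on each array, with normoxia as open circles, hypoxia replicate 1 as triangles and hypoxia replicates 2 and 3 as squares. For all 22 named genes that were tested, hypoxia replicates 2 and 3 lie below the normoxia mean, while hypoxia replicate 1 lies below it for 12 and above it for 10. Levels of different probes are not comparable.

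Across the ten-spot genes hypoxia replicates 2 and 3, the arrays of scan 2, gave mostly lower values than normoxia, and replicate 1 did not. Hypoxia replicates 2 and 3 were below the normoxia mean for 36 and 35 of the 39 tested probes and replicate 1 for 21. Over all probes tested the shares were 52.7%, 52.2% and 49.4%. The median differences over the 39 were -0.54, -0.56 and -0.0096. Over the 3 hypoxia arrays together, limma called 0 of the 39 tested probes lower and 0 higher, where 2.71% of all probes tested were called lower and 0.923% higher. At an unadjusted p under 0.05, 14 of the 39 were lower (15.8% of all probes) and 0 were higher (12.5% of all). The change was below -1, over 2-fold lower, for 6 of the 39 probes (5% of all probes) and above 1 for 0 (3.71% of all). Its sign was negative for 34 of the 39, against 50.2% of all probes tested. The median change was -0.36 over the 39 and -0.0022 over all probes. The values of all 3 hypoxia samples were lower than those of all 3 normoxia samples for 16 of the 39 (22.2% of all probes) and higher for 3 (17.3% of all). For each of those probes the exact permutation test, two-sided, gave 0.1, the smallest p that 3 arrays in each condition allow.

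The count of calls depended on the fit. Without the replicate number as a block, limma called 5 of the 39 lower, Pdk3, Dlg4, Slc28a2, Med16 and Nlrp3, beside 3.78% of all probes lower and 1.27% higher. Without hypoxia replicate 1, in a fit with no block, 7 were lower, these 5 with Mex3c and Cse1l, beside 8.81% of all probes lower and 8.38% higher. The same 7 were lower without both arrays numbered 1, beside 9% lower and 8.76% higher of all probes. With the authors' processed values 3 were lower, beside 3.17% of all probes lower and 1.06% higher, and with only probes detected on all 6 arrays 3 were lower, beside 3.12% lower and 0.98% higher. These 3 were Dlg4, Med16 and Pdk3 in both. Under 75th-percentile scaling 4 were lower (Pdk3, Slc28a2, Med16 and Cse1l) and 0 higher, beside 3.02% and 4.08% of all probes, and the median change was -0.33 over the 39 where that scaling moved the median of all probes to 0.16. Without both arrays numbered 2, and without both numbered 3, 1 was lower (Dlg4 and Pdk3), each beside 2.57% of all probes. Since scan 2 held hypoxia arrays only, a fit with the scan as a block sets hypoxia replicate 1 alone against normoxia, and its lone sample is assumed to vary like the others. In that fit 0 of the 39 were called, beside 2.41% of all probes lower and 2.08% higher, and at an adjusted p under 0.05 without the limit on fold 8 of the 39 were lower and 1 higher, beside 7.43% and 7.26% of all probes. With the replicate block added, only hypoxia 1 minus normoxia 1 is left with 1 residual degree of freedom, and the calls over all probes were 0% lower and 0% higher, which says nothing about these genes. The methods' paired t-test called 1 of the 39 lower (Med16) without adjustment, beside 3.03% of all probes lower and 1.07% higher, and 0 after Benjamini-Hochberg adjustment.

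**Figure D2:**
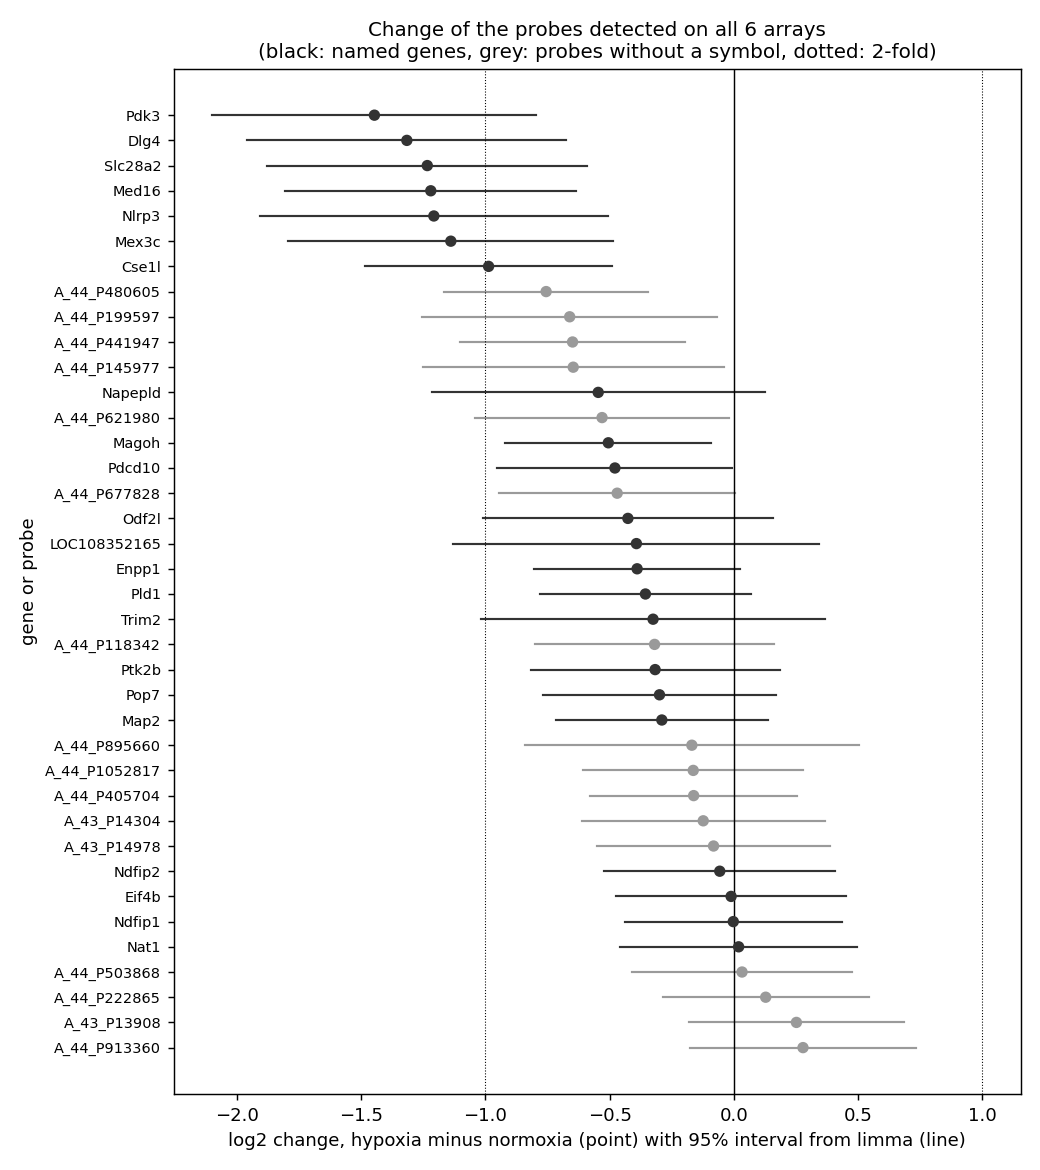
Change (hypoxia minus normoxia, log2) of the 38 probes detected on all 6 arrays, as points with the 95% interval from limma as lines, black for named genes and grey for probes without a symbol. The values run from -1.45 (Pdk3) to 0.28, and 33 of the 38 are negative.

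Among the enzymes, Pdk3, a kinase that switches off pyruvate dehydrogenase, had the lowest change of all the ten-spot genes tested. Normoxia replicates 1 to 3 gave levels of 7.28, 7.38 and 7.27, and hypoxia replicates 1 to 3 gave 6.49, 5.48 and 5.62. Every hypoxia array was below every normoxia array, and hypoxia replicate 1 lay between the other hypoxia arrays and normoxia. The change was -1.45 ± 0.26 (SE), 2.73-fold lower, with a 95% interval of -2.10 to -0.79 and an adjusted p of 0.0508 by limma, just outside the threshold. With the normexp background correction the change of Pdk3 was -0.88. All 9 spot positions measured on the 6 arrays gave a negative difference, from -1.56 to -1.37. Enpp1, which makes the pyrophosphate that restrains mineralisation, went from 12.60 ± 0.046 (SD, n = 3) to 12.21 ± 0.073, a change of -0.39 (adjusted p = 0.191 by limma) with no overlap between conditions. Under 75th-percentile scaling the change of Enpp1 was -0.63. Pld1, which makes phosphatidic acid from phosphatidylcholine, also showed no overlap, with a change of -0.36 (limma adjusted p = 0.223). Napepld, which releases N-acylethanolamines from membrane lipids, had a change of -0.55 (limma adjusted p = 0.232), but it was 0.06 under 75th-percentile scaling, the opposite sign, and -0.08 with normexp. This probe was dim, with intensities of 8.83 to 15.6 under normoxia and 12.13 to 13.37 under hypoxia. On the log2 scale hypoxia replicate 1, at 4.11, was above all normoxia arrays, at 3.73 to 3.96, and the other hypoxia arrays were at 2.86 and 2.92.

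Nat1, an arylamine N-acetyltransferase, was among the 5 probes with the smallest change. Its levels were 8.996, 9.01 and 8.95 under normoxia and 9.33, 8.77 and 8.91 under hypoxia. Hypoxia replicate 1 was above normoxia and the other hypoxia arrays below it. The change of 0.02 had a 95% interval of -0.46 to 0.50, which does not show that the level was equal in both conditions. Of the 5 tested enzymes, 4 had a negative change (50.2% of all probes), 1 had an unadjusted p under 0.05 (28.3% of all) and 0 passed the threshold.

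Both transport genes were lower on every hypoxia array than on every normoxia array, as were 22.2% of all probes, and neither passed the threshold. Slc28a2, a sodium-coupled transporter that takes up purine nucleosides, was at 7.53, 7.67 and 7.60 under normoxia and at 6.96, 6.08 and 6.06 under hypoxia. Hypoxia replicates 2 and 3 were alike and replicate 1 was nearer to normoxia. The change was -1.23 ± 0.26 (SE), with an adjusted p of 0.0674 by limma, and with the normexp correction it was -0.82. Cse1l, the exportin that returns importin alpha from the nucleus, was at 11.42, 11.44 and 11.46 under normoxia and at 10.80, 10.17 and 10.38 under hypoxia. Its change was -0.99 ± 0.20 (SE), with an adjusted p of 0.0639 by limma. With a spread of 0.017 (SD, n = 3) the normoxia arrays were close together, while the hypoxia arrays had an SD of 0.320. Cse1l and Mex3c below were given in full after their values were seen, because leaving out hypoxia replicate 1 brought them past the threshold.

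Of the 8 genes of receptors, signalling and the cytoskeleton, 6 were tested and all 6 had a negative change (50.2% of all probes), 3 of them with an unadjusted p under 0.05 (15.8% of all probes were lower at that p). Dlg4 encodes the scaffold PSD-95, best known from synapses. Its levels were 5.82, 5.74 and 5.82 under normoxia and 5.10, 4.35 and 3.97 under hypoxia. The conditions did not overlap, and the change was -1.32 ± 0.26 (SE), 2.49-fold lower, with an adjusted p of 0.0598 by limma. With the normexp background correction the change of Dlg4 was -0.48. Nlrp3, the sensor of an inflammasome, was at 3.89, 4.001 and 4.11 under normoxia and at 3.43, 2.46 and 2.48 under hypoxia. Its change of -1.21 (limma adjusted p = 0.0825) comes from a dim probe, with intensities of 11.6 to 15.0 under normoxia and 7.51 to 10.5 under hypoxia beside a local background of 13.25 to 24. Under 75th-percentile scaling the change of Nlrp3 was -0.58, and with the normexp background correction it was -0.19 (limma adjusted p = 0.202).

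Pdcd10, a member of the cerebral cavernous malformation complex, showed no overlap between conditions and a change of -0.48 (limma adjusted p = 0.174). The other 3 overlapped between conditions: Odf2l, a centriolar protein, at -0.43, Ptk2b, the calcium-responsive tyrosine kinase PYK2, at -0.32, and Map2, a microtubule-associated protein of neurons, at -0.29. Map2 was dim, and its change was 0.39 under 75th-percentile scaling, the opposite sign, and -0.01 with normexp. For Ptk2b the values were -0.05 and -0.16.

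Mex3c, an RNA-binding ubiquitin ligase, had the lowest change of the genes of ubiquitin ligation. It was at 6.37, 6.33 and 6.35 under normoxia and at 5.91, 4.81 and 4.91 under hypoxia. All hypoxia arrays were below normoxia, with replicate 1 the nearest, and the change was -1.14 ± 0.26 (SE) with an adjusted p of 0.0812 by limma. With the normexp correction it was -0.55. Trim2, another ligase, had a change of -0.32 (limma adjusted p = 0.450), with hypoxia replicate 1, at 9.31, above the normoxia arrays and the other hypoxia arrays, at 8.24 and 8.48, below them. The related adaptors Ndfip1 and Ndfip2, which recruit ligases of the Nedd4 family, were among the probes with the smallest change. Ndfip1 was at 11.50, 11.53 and 11.46 under normoxia and at 11.69, 11.34 and 11.45 under hypoxia. Ndfip2 was at 10.61, 10.59 and 10.61 under normoxia and at 10.85, 10.37 and 10.41 under hypoxia. In both adaptors hypoxia replicate 1 was the highest of the 6 arrays and the other hypoxia arrays were the lowest. The changes were -0.0018 (95% interval -0.44 to 0.44) and -0.06 (-0.52 to 0.41), and under 75th-percentile scaling they were -0.24 and -0.27.

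For transcription, RNA and translation, Med16, a subunit of the Mediator complex, was at 7.90, 7.91 and 7.63 under normoxia and at 7.23, 6.32 and 6.23 under hypoxia. Every hypoxia array was below normoxia, and the change was -1.22 ± 0.23 (SE), 2.33-fold lower, with an adjusted p of 0.0579 by limma. Magoh, a core protein of the exon junction complex, showed no overlap and a change of -0.51 (limma adjusted p = 0.137). Pop7, a subunit of RNase P and RNase MRP, had a change of -0.30 (limma adjusted p = 0.321; -0.53 under 75th-percentile scaling), and its hypoxia replicate 1, at 11.14, lay within the normoxia values. Eif4b, which aids the helicase that opens messenger RNA for translation, was at 11.31, 11.40 and 11.27 under normoxia and at 11.58, 11.19 and 11.18 under hypoxia. Its change was -0.01 (95% interval -0.47 to 0.45; -0.25 under 75th-percentile scaling), with hypoxia replicate 1 above and the other hypoxia arrays below normoxia. LOC108352165, which RefSeq lists as a long non-coding RNA, had the widest hypoxia spread of the named genes, 0.825 (SD, n = 3). Its levels were 5.00, 4.98 and 4.40 under normoxia and 5.35, 3.93 and 3.92 under hypoxia, and its change was -0.39 (limma adjusted p = 0.397). This change was 0.08 under 75th-percentile scaling, the opposite sign, and -0.10 with normexp.

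The 16 unnamed probes detected on all 6 arrays had changes from -0.76 to 0.28, with 12 negative (14 under 75th-percentile scaling) and 0 past 2-fold. In 5 of the 16 all hypoxia arrays lay below normoxia (22.2% of all probes) and in 3 above it (17.3% of all). A_44_P480605, chosen after its values were seen, had the lowest change of these probes and the smallest hypoxia spread. It was at 9.74, 9.82 and 9.68 under normoxia and at 8.996, 8.98 and 8.999 under hypoxia. Here hypoxia replicate 1 was level with the other hypoxia arrays, with an SD of 0.011 (n = 3) over the 3. Its adjusted p was 0.0739 by limma, with a change under 2-fold. A_44_P503868 was the unnamed probe among the 5 with the smallest change, at 11.39, 11.43 and 11.24 under normoxia and at 11.31, 11.34 and 11.52 under hypoxia. Its conditions overlapped, with a change of 0.03 (limma adjusted p = 0.910), and under 75th-percentile scaling the change was -0.21, the opposite sign.

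In most other members hypoxia replicate 1 stood apart from hypoxia replicates 2 and 3. It was above both for 34 of the 39 tested probes and for 22 of the 22 named ones, against 52.7% of all probes tested. Over all probes the median differences from the normoxia mean, given above for the 39, were 0.0039 in hypoxia replicate 1, -0.05 in replicate 2 and -0.04 in replicate 3. The signs of replicate 1 and of the mean of replicates 2 and 3 were opposite for 16 of the 39 probes (39.7% of all). The SD over the hypoxia arrays was larger than over the normoxia arrays for 38 of the 39 (89.1% of all probes), with medians of 0.293 and 0.050.

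**Figure D3:**
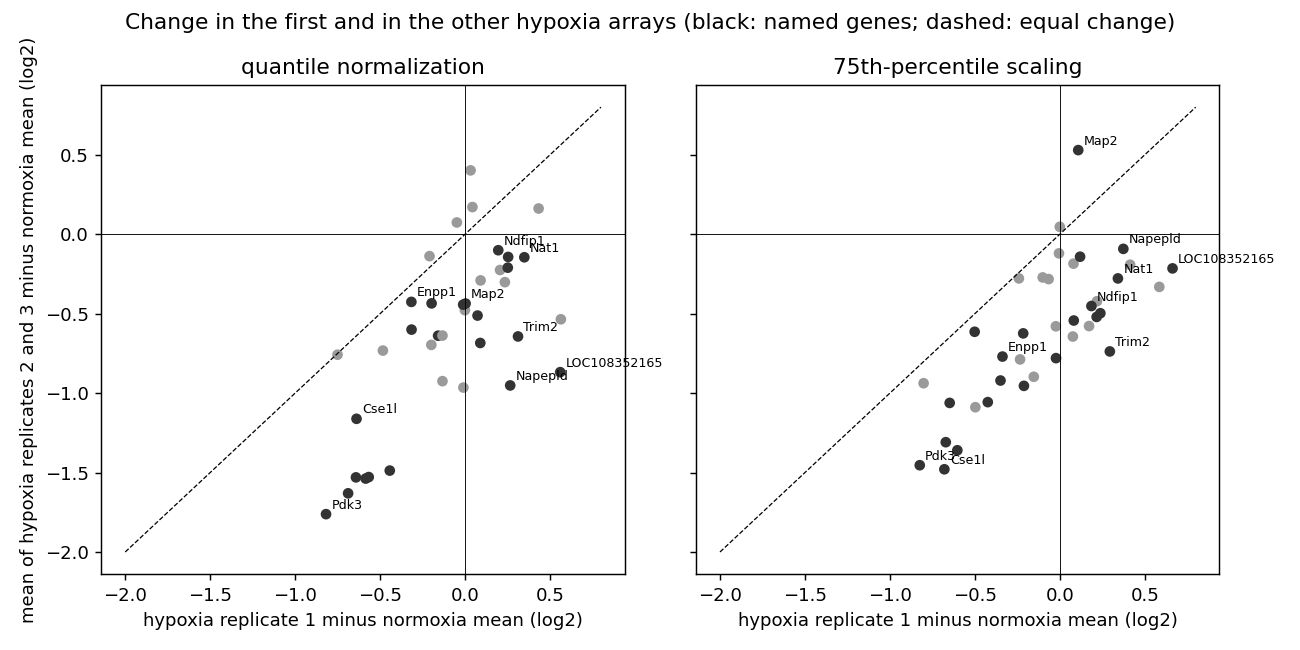
Change from the normoxia mean in hypoxia replicate 1 (horizontal axis, log2) and in the mean of hypoxia replicates 2 and 3 (vertical axis, log2) for the 38 probes detected on all 6 arrays, after quantile normalization (left) and 75th-percentile scaling (right). Under the 75th-percentile scaling, 36 of the 38 lie below the dashed line of equal change, and Pdk3 and Cse1l are low on both axes.

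Before normalization, hypoxia replicate 1 and the mean of replicates 2 and 3 were within 0.5 on the log2 scale for most of these probes. Of the exceptions, A_44_P913360 had hypoxia intensities of 3872, 6488 and 5392. The intensity of Pdk3 was 187, 166 and 118 in normoxia and 68.1, 67.8 and 62.1 in hypoxia. The intensity of Eif4b was 3387, 2968 and 2132 in normoxia and 2556, 2556 and 2008 in hypoxia. The 3 hypoxia intensities of Pdk3 were lower than all normoxia intensities, whereas those of Eif4b lay within the normoxia range or just below it. Over the 39 tested probes, the mean log2 intensity of hypoxia replicates 2 and 3 minus that of replicate 1 had a median of -0.04, and it was within 0.5 of zero for 35 of the 39. Over all probes tested the median was 0.63, and 44.6% were within 0.5. The 80 tested probes with 20 spots had a median of 1.36 and the 30327 with 1 spot a median of 0.63, so that the ten-spot probes did not share the rise in intensity of most probes between hypoxia replicate 1 and the arrays of the second scan. After quantile normalization the median over the 39 was -0.49, and after 75th-percentile scaling -0.61. The 5 ten-spot probes that were left out had a median of 0.02 before normalization, and in 5 of the 5 hypoxia replicate 1 was above both other hypoxia arrays after it. Scan and hypoxia replicate moved together with these values, and their part in the changes was not tested.

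The change from normoxia was also taken by range of intensity. It was negative for 6 of 6 probes with a normoxia level under 6, for 13 of 14 between 6 and 9 and for 14 of 18 at 9 and over, among those detected on all 6 arrays. The medians were -0.60, -0.45 and -0.23. Under 75th-percentile scaling 3, 14 and 16 of these probes were negative, with medians of -0.02, -0.36 and -0.40, so that the order of the ranges turned round. In hypoxia replicate 1 alone the difference was negative for 3, 9 and 9 of these probes, with medians of -0.0031, -0.13 and 0.01, and the medians in replicates 2 and 3 were -0.96, -0.66 and -0.36. Over all probes tested, split by their mean level at the same limits, 48.9%, 50.2% and 52.6% were negative, with medians of 0.02, -0.0030 and -0.02. This split used the mean over the 6 arrays rather than the normoxia level, so the ranges are not formed alike.

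The 10 spots of a probe give the spread between spots within an array. Part of this spread goes with the position and recurs on the other arrays, as given below. The SD over the spots, taken as the median over the 6 arrays, ranged from 0.053 to 0.307 among the 39 tested probes with a median of 0.093, which makes the standard error of a probe's mean on an array 0.030 in the median. The SD was 0.175 in the median for the 6 probes with a level under 6, 0.088 for the 14 between 6 and 9 and 0.092 for the 18 above. Among the named genes detected on all 6 arrays it ran from 0.065 (Med16) to 0.281. The normoxia arrays differed by 0.050 (median SD of the array means), against that spot standard error of 0.030, and the hypoxia arrays by 0.293.

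**Figure D4:**
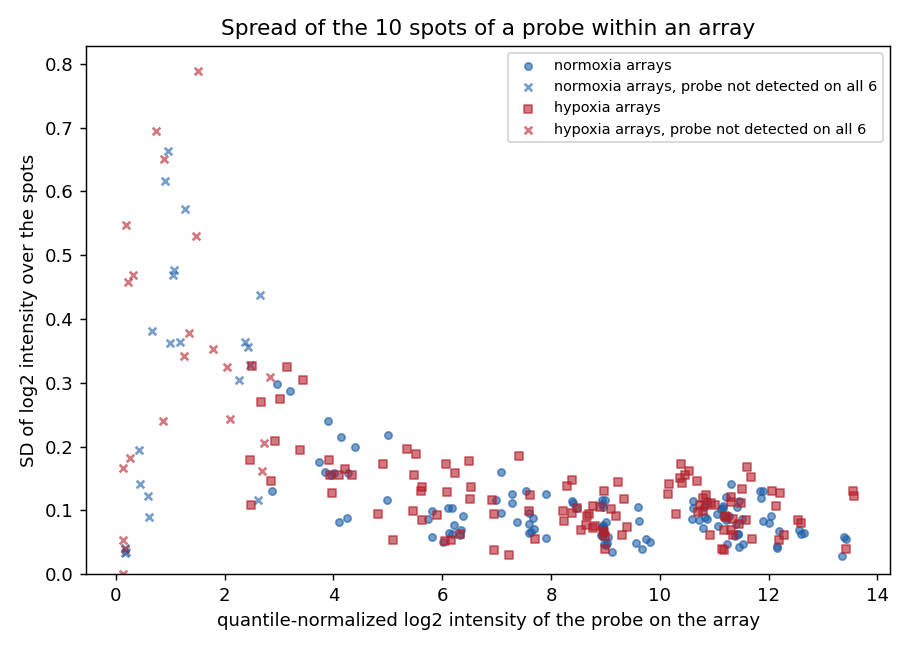
SD of log2 intensity over the spots of a probe on one array (vertical axis) against the quantile-normalized log2 level of the probe on that array (horizontal axis), with circles for normoxia, squares for hypoxia and crosses for probes not detected on all 6 arrays. Among probes detected on all 6 arrays the spread is widest for dim ones and has a median of 0.088 between levels of 6 and 9. Some undetected probes have a small spread, with a median of 0.040 for Lhcgr.

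Of the 2700 spots of the 45 probes on the 6 arrays, 100 were marked as outliers and were not used. Spots at the same position deviated together from their probe's mean: over 321 spots the correlation of these deviations between pairs of arrays ranged from 0.27 to 0.56, a description in which the points share probes and print positions. Among the positions usable on all 6 arrays, the difference was negative at every position for 30 of the 39 probes and positive at every position for 3. For Cse1l the 8 positions gave -1.05 to -0.93, and for Med16 the 7 positions gave -1.28 to -1.16. For Ndfip1 the 10 positions gave -0.05 to 0.07. Spots of one array are not replicates of the condition, for which the 3 arrays count.

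**Figure D5:**
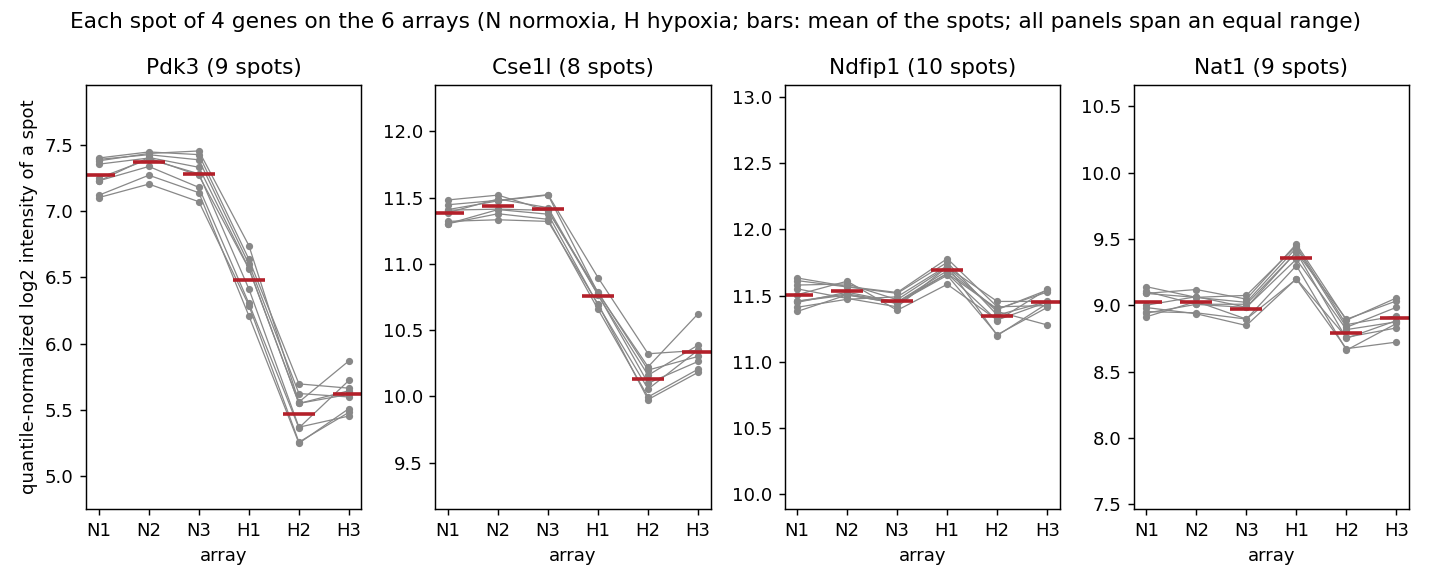
Log2 intensity of each spot of Pdk3, Cse1l, Ndfip1 and Nat1 on the 3 normoxia (N) and 3 hypoxia (H) arrays, shifted to the quantile-normalized scale of its probe, with grey lines joining a position across arrays and bars for the mean of the positions. Every position of Pdk3 and Cse1l is lower on the hypoxia arrays, and Ndfip1 and Nat1 are highest on hypoxia replicate 1.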

How the data were processed

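For each of the 6 single-colour arrays the authors deposited scanner output of Agilent Feature Extraction 11.0.1.1. Its intensity values had the background subtracted by that software and were on each array's own scale. A second deposited table, of normalized log2 values, holds 43 of the 45 probes and served as an alternative only. The labels gave the condition and replicate number of every array. Here, control and outlier spots were dropped, the log2 intensities of a probe's spots were averaged, and quantile normalization was run over 38733 probes measured on every array. The fit took the 30451 probes detected on 3 or more of the 6 arrays. It was made in R 4.3.3 with limma 3.58.1 (lmFit, eBayes) and Benjamini-Hochberg adjustment, with a block for the replicate number, since the methods name a paired test. The fits were tested on simulated data. Symbols and promoters came from RefSeq tables of GRCr8 by accession and symbol. Sequences of the probes were not used here.

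The probes, gene groups and lists were chosen with earlier results of these data known. Values on every array were to be given for the 5 probes with the largest and the 5 with the smallest change among those detected on all 6 arrays. The other named genes are given by level and change, and any further per-array values were chosen after the values were seen. The 3 arrays per condition limit the precision of all values. The alternatives were 75th-percentile scaling, normexp with an offset of 50 on spot medians, the authors' values, other filters on detection, no block, the scan as a block, other summaries of the spots, the methods' paired t-test and leaving out each replicate number or array.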

Additional observations from a re-analysis of the deposited data

How the results depend on the processing

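Probes called lower under hypoxia numbered 0 in the fit reported, 4 under 75th-percentile scaling, 3 with the authors' processed log2 values, 3 among probes detected on all 6 arrays, 5 without the replicate block, 1 by the methods' paired t-test unadjusted, and 0 to 7 when a replicate number or an array was left out. The 75th-percentile scaling moved the median change of all probes tested to 0.16, and the 4 calls were Pdk3, Med16, Slc28a2 and Cse1l. Pdk3, Dlg4 and Med16 were the 3 calls both with the authors' values and with probes detected on all 6 arrays. The 7 calls came without hypoxia replicate 1 or without both arrays numbered 1. Without both arrays numbered 2 the 1 call was Dlg4, and without both numbered 3 it was Pdk3. No alternative called one of these probes higher. Nothing says whether equal replicate numbers pair the samples. Deviations of same-numbered arrays from their group means correlated at -0.19, -0.06 and -0.09. These values cannot decide it, because hypoxia replicate 1 also differs from replicates 2 and 3 by scan. Over 22 genes and 21 alternatives each, 389 of 462 values kept their direction and side of the threshold. Another 32 passed it in the same direction and 41 changed sign. Detection filters, no block and paired t-tests keep the change by construction, so its sign cannot turn. Of the 22 genes, 11 kept their sign under the rest too, among them the 7 with the lowest change, which were smaller under some. With normexp Pdk3 was -0.88, Dlg4 -0.48, Slc28a2 -0.82, Nlrp3 -0.19 and Mex3c -0.55, and with scan and replicate blocks, a fit that leaves only hypoxia 1 minus normoxia 1, Pdk3 was -0.79, Dlg4 -0.72, Slc28a2 -0.58, Med16 -0.67, Nlrp3 -0.46, Mex3c -0.47 and Cse1l -0.62. The others changed sign as follows. Under 75th-percentile scaling the change was 0.39 for Map2, 0.0634 for Napepld, 0.078 for LOC108352165 and -0.0712 for Nat1. Ndfip1 was 0.00065 with normexp and 0.0233 with the median of the spots. The cause of these sign changes was not tested. With the scan as a block the change is, by construction, that of hypoxia replicate 1 alone, so the values restate its level. When scan and replicate number were both blocks, the change was 0.012 for Pop7, 0.27 for Eif4b, 0.25 for Ndfip2, 0.19 for Ndfip1, 0.12 for Odf2l, 0.15 for Napepld, 0.0508 for Ptk2b, 0.37 for Trim2 and 0.35 for LOC108352165. With the scan and no replicate block it was 0.25 for Eif4b, 0.25 for Ndfip2, 0.0035 for Map2, 0.20 for Ndfip1, 0.0898 for Odf2l, 0.27 for Napepld, 0.0737 for Ptk2b, 0.31 for Trim2 and 0.56 for LOC108352165. When a replicate number or an array was left out, the change ran from -0.15 to 0.0915 for Eif4b, -0.21 to 0.032 for Ndfip2, -0.10 to 0.0924 for Ndfip1 and -0.14 to 0.15 for Nat1. Over the same leave-outs, and with no change of sign, it ran from -0.67 to -0.0451 for Trim2, -0.87 to -0.0661 for LOC108352165, -0.95 to -0.33 for Napepld, -0.70 to -0.26 for Odf2l, -0.51 to -0.17 for Ptk2b, -0.44 to -0.18 for Map2 and -0.45 to -0.20 for Pop7. The lowest value came without hypoxia replicate 1 or without both arrays numbered 1.
Of the 45 probes, 38 were detected on all 6 arrays with the well-above-background mark alone, and 36 where all spots had to be detected. The median spot SD over all 45 probes was 0.0968, 0.105 with outlier spots kept and 0.105 on spot medians without background subtraction.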
